A study of Mus musculus with 26 samples.

Results

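The livers of 3 lean C57BL6 (B6) mice, named B6_2021, B6_2029 and B6_2035, were compared with the livers of 3 other lean B6 mice, named B6_5541, B6_5542 and B6_5543. All 6 are labelled Baseline for treatment and for route, and they were split here by the number range in their titles, into B6-20xx (3 mice) and B6-55xx (3 mice), 6 of the 26 livers of the series. The study names the B6-20xx mice B6_aCSF in 1 place, aCSF being artificial cerebrospinal fluid, but no infusion of these mice is described. Sex, age, feeding and hour of killing of the B6 mice are not given in the sources used here, and neither are the chips or the dates of the arrays, so any of these cannot be told apart from the subset. The other 20 livers came from female ob/ob mice, which make no functional leptin. They form 5 groups of 4, namely leptin under the skin by pump (LEP-SQ) with its saline control (VEH-SQ), and leptin into the brain ventricle with weight loss (LEP-ICV) or without it (LEP-ICV*) with the aCSF control (VEH-ICV).

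Liver gene expression turns with the hour. In the core clock the proteins Clock and Arntl (Bmal1) bind E-box sequences and switch on their own repressors, the Per and Cry genes and Ciart, together with the output factors Dbp and Tef. The receptors Nr1d1 and Nr1d2 repress Arntl, so Arntl peaks when Per, Dbp and Ciart are low. Liver also makes acute-phase proteins during inflammation, and in fasting it switches on fatty acid oxidation under the receptor Ppara and glucose production under glucocorticoids and Foxo1. These are background facts, and none of these conditions was recorded for the B6 mice.

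Levels are log2 values of the array intensity after background correction and normalization, so a difference of 1 is a factor of 2, and every difference is B6-20xx minus B6-55xx. All 6 arrays had a high background, with a median intensity of undetected probes of 171.1 to 184.8 in B6-20xx and 176.4 to 186.1 in B6-55xx. Between 9201 and 9931 probes were detected in B6-20xx and between 9677 and 10169 in B6-55xx. Over the genes tested, arrays correlated at 0.956 to 0.987 within B6-20xx, at 0.979 to 0.986 within B6-55xx and at 0.932 to 0.974 between the subsets, and the lowest value within B6-20xx and the 3 lowest between the subsets were those of mouse B6_2021. The summed level of the 10 hepatocyte marker genes on the array was 17.98 to 18.08 in B6-20xx and 17.92 to 18.06 in B6-55xx. Xist, the X-inactivation RNA, was detected on all 6 arrays and none of 4 Y-linked genes on any.

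Of 7246 genes tested, 59 were higher in B6-20xx than in B6-55xx (0.814%) and 43 were lower (0.593%) by limma at a Benjamini-Hochberg adjusted p under 0.05. In 94 of these 102 genes the difference was above 1 on the log2 scale, and the median difference over all genes was 0.03. At an unadjusted p under 0.05, 808 genes were higher and 689 lower. The 3 mice of B6-20xx all lay above the 3 of B6-55xx in 1135 genes (15.7%) and all below in 913 (12.6%). An exact permutation test of 3 mice against 3 cannot go below a two-sided p of 0.10, so the calls rest on the variance that limma shares across genes. The count of calls moved with the mice. Without mouse B6_2029 limma called 0 genes, with 1191 at an unadjusted p under 0.05 and a lowest adjusted p of 0.059. Without mouse B6_5541 it called 22 genes and without B6_5542 it called 16, against 75 without B6_2021, 140 without B6_2035 and 67 without B6_5543. Of the 102 genes, 12 were detected on all arrays of 1 subset and on none of the other, as 57 of all genes tested were, and such genes entered the test only through the subset where they were high. List medians were the same with such genes set at their bound.

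**Figure D1:**
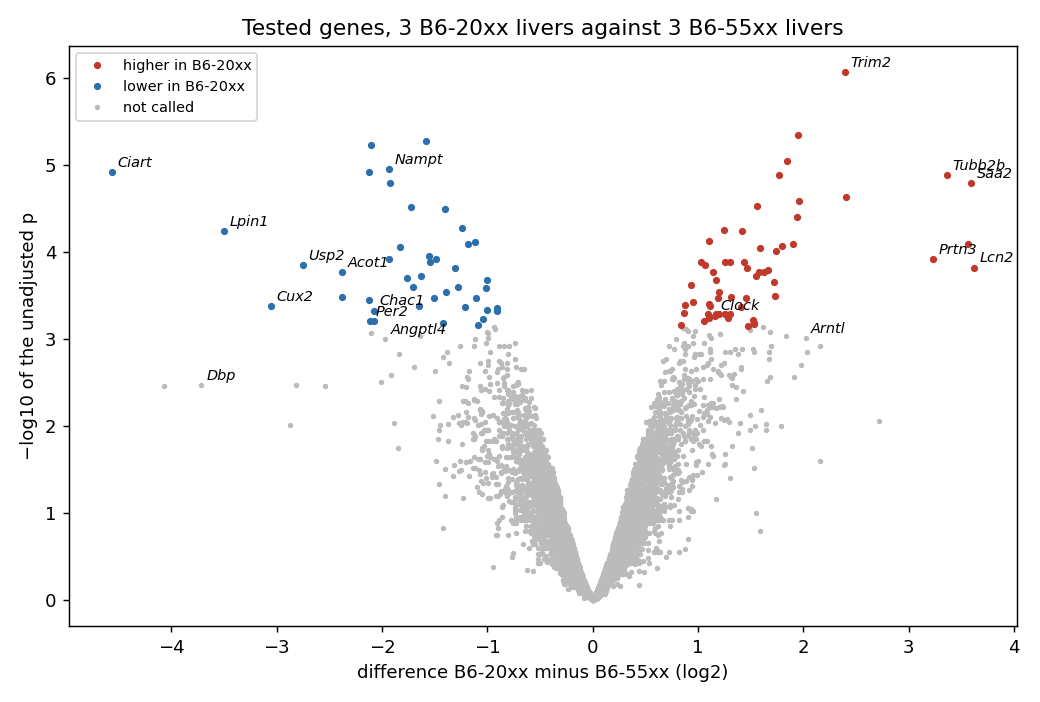
Each point is 1 of the 7246 genes tested, with the difference B6-20xx minus B6-55xx (log2) on the horizontal axis and minus log10 of the unadjusted limma p on the vertical axis. The 59 genes called higher in B6-20xx are red, the 43 called lower are blue and the others grey, and genes not detected in 1 subset stand at their fitted difference, which is no bound.

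Clock genes differed between the subsets. Of 12 listed genes that peak with E-box and D-box output, 9 were tested, 3 were called lower in B6-20xx and none higher, and their median difference was -2.01, against 0.03 for all genes. Of 7 listed genes of the opposite phase, 4 were tested, Clock was called higher, none was called lower, and the median was 1.22. All 3 mice of B6-20xx lay below all 3 of B6-55xx in 7 of the 9, against 12.6% of all genes, and above them in 2 of the 4, against 15.7%. Over all genes 0.593% were called lower and 0.814% higher. Of the 9, limma called 0 lower without mouse B6_2029, 1 without mouse B6_5541 and 1 without mouse B6_5542, against 5 without mouse B6_2035. With the authors' log2 values it called 0 of the 9 and 0 of the 4, and in a model of all 26 arrays 5 and 1. Per3, Hlf, Bhlhe41 and Cry1 were detected on none of the 6 arrays and Npas2 on 2 arrays of B6-20xx and none of B6-55xx, so these were not tested.

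Ciart, the repressor of the Clock and Arntl pair also named Chrono, had 5.11, 5.16 and 5.52 in mice B6_2021, B6_2029 and B6_2035, and 10.57, 10.40 and 8.49 in mice B6_5541, B6_5542 and B6_5543. It was below the detection limit in all 3 B6-20xx livers and detected in all 3 B6-55xx livers, with mouse B6_5543 the lowest of these. Counted against the detection limit, Ciart was at least 13.7-fold lower in B6-20xx (limma adjusted p = 0.0096), and it entered the test only through B6-55xx. Per2, the period repressor that shuts the Clock and Arntl pair off, had 9.74, 8.95 and 8.88 in B6-20xx against 11.54, 11.94 and 10.42 in B6-55xx. The subsets did not overlap, and the difference was -2.11 ± 0.40 (SE, limma adjusted p = 0.047), with -1.96 from a second probe. Bhlhe40 (Dec1), a repressor that competes for E-boxes, had 10.47, 10.31 and 9.89 in B6-20xx against 11.48, 11.72 and 11.41 in B6-55xx. All 3 mice of each subset lay within 0.6 of each other, and the difference was -1.31 ± 0.20 (SE, limma adjusted p = 0.025).

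The promoter of Ciart shows the sequence to which this loop is tied. It is printed with those of Per1 and Coq10b, both clock-driven, and of Arntl, from the opposite arm, as RefSeq windows of 250 bases before to 50 after a start site in mouse build GRCm38.p6. Capitals mark the E-box CACGTG in the first 3 and the half-site AGGTCA, which the receptors Nr1d1, Nr1d2 and Rora can bind, in Arntl. Positions count from the start site. The Ciart window (chr3:95882179-95882478, minus strand) held 3 E-boxes, starting at -116, -58 and -44. The Per1 window (chr11:69098699-69098998, plus strand) held 1 at -166, and a second Per1 window (chr11:69099902-69100201) held none. The Coq10b window (chr1:55052520-55052819, plus strand) held 1 at -78. The second Arntl window, printed here (chr7:113207261-113207560, plus strand), held 1 half-site at 32 and no E-box. The first Arntl window (chr7:113207215-113207514) held neither. The half-site was not particular to the opposite arm. It stood in a Clock window at -119 and in Nfil3 at -12. It also stood in the printed Per1 window at -137, in Nr1d2 at -77, in Nampt at -151 and in Lpin1 at -74.
Ciart: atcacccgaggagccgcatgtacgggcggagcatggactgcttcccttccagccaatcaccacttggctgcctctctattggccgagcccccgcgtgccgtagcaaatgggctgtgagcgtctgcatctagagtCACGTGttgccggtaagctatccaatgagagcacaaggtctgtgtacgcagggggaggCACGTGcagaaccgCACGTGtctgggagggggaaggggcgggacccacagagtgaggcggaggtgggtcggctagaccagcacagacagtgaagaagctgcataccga
Per1: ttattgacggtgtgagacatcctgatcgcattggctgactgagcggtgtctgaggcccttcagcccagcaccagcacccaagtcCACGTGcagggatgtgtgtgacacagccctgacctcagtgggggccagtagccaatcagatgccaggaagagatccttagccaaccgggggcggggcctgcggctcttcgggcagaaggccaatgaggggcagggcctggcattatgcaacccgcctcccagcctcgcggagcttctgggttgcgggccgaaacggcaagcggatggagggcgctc
Coq10b: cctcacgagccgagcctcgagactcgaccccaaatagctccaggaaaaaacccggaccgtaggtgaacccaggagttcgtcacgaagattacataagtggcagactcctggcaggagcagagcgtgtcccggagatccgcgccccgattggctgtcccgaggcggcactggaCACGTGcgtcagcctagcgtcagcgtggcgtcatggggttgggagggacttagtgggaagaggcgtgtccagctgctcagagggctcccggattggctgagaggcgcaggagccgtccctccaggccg
Arntl: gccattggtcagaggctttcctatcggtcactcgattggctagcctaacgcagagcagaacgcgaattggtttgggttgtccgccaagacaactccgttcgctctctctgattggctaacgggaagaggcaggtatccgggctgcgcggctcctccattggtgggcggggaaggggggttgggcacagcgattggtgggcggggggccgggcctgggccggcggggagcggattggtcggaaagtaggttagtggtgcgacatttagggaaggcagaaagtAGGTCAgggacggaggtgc
Of 26 genes looked up, 23 had a window, and Per2, Bhlhe40 and Angptl4 had none. Over 32851 promoter windows of this length, 7.15% held CACGTG and 16.3% held AGGTCA on either strand. The D-box, read as TTATGTAA on either strand, stood in 0.938% of windows and once in that of Coq10b, at -162, where it overlaps a match to TTNNGNAAT. Tef held 1 E-box in each of its 2 windows, starting at -127 and -138, and Fkbp5 held 1 at -169, while the windows of Dbp, Nr1d1, Nr1d2, Cry2, Usp2, Nampt, St3gal5 and Lpin1 held none. A match is a description of the letters and not a measured binding site.

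Other clock outputs separated without passing the threshold, and in several of them a single mouse of B6-20xx lay near B6-55xx. Dbp, the D-box activator with one of the widest daily swings in liver, had 7.92, 8.12 and 11.70 in B6-20xx and 13.65, 13.10 and 12.14 in B6-55xx. Mouse B6_2035 was close to mouse B6_5543, and the difference was -3.72 ± 0.92 (SE, limma adjusted p = 0.097). Without mouse B6_2035 it was -4.95 (adjusted p = 0.0043). That was the only 1 of 6 fits leaving out 1 mouse that passed the threshold, with adjusted p up to 0.25. Per1, the second period repressor, had 9.62, 5.71 and 6.41 in B6-20xx against 10.22, 10.32 and 9.81 in B6-55xx. Here it was mouse B6_2021 that lay near B6-55xx, and the difference was -2.87 ± 0.86 (SE, limma adjusted p = 0.13), or -4.05 without mouse B6_2021 (adjusted p = 0.0023). Again only 1 of 6 such fits passed the threshold, with adjusted p up to 0.29. Per1 was detected on 2 of the 3 arrays of B6-20xx. Nr1d2, the second Rev-erb receptor, had 6.51, 7.28 and 8.76 in B6-20xx against 9.67, 9.24 and 9.67 in B6-55xx, and Tef, a relative of Dbp, had 8.30, 8.72 and 9.85 in B6-20xx against 10.66 ± 0.40 in B6-55xx (SD, n = 3). Mouse B6_2035 was the highest of B6-20xx in both, and their differences were -2.01 and -1.70 (limma adjusted p = 0.093 and 0.081). Without mouse B6_2035 they were -2.63 and -2.15 (adjusted p = 0.0079 and 0.014). In each gene that was the only 1 of 6 such fits past the threshold, with adjusted p up to 0.24 and 0.23.

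Nr1d1 (Rev-erb alpha) did not follow the other outputs. It had 6.41, 8.48 and 10.66 in B6-20xx against 9.67, 8.26 and 7.60 in B6-55xx, so the lowest and the highest liver were both in B6-20xx. The difference of 0.01 ± 0.96 (SE, limma adjusted p = 1.0) allows a wide range on either side. Cry2, the cryptochrome repressor, had 6.62, 6.86 and 7.67 in B6-20xx and 7.53, 7.77 and 8.16 in B6-55xx, with 1 mouse of overlap and a difference of -0.76 (limma adjusted p = 0.20).

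On the opposite arm, Clock had 10.56, 10.64 and 10.47 in B6-20xx against 8.98, 9.53 and 9.70 in B6-55xx. The difference was 1.16 ± 0.21 (SE, limma adjusted p = 0.044), and leaving out any 1 mouse gave 0.95 to 1.30 with adjusted p of 0.056 to 0.18. Arntl, its partner, had 7.42, 8.02 and 7.04 in B6-20xx against 4.85, 5.20 and 6.38 in B6-55xx. It was detected in 3 livers of B6-20xx and in 1 of B6-55xx, and the difference was 2.02 ± 0.41 (SE, limma adjusted p = 0.058). Without mouse B6_5543 it was 2.47 (adjusted p = 0.025) and without mouse B6_2035 it was 2.25 (adjusted p = 0.046). Only these 2 of 6 such fits passed the threshold, with adjusted p up to 0.20. Nfil3 (E4bp4), which opposes Dbp at D-boxes, had 11.63, 11.31 and 10.94 in B6-20xx against 9.56, 9.51 and 10.94 in B6-55xx. Mouse B6_5543 had the level of mouse B6_2035, and the difference was 1.29 (limma adjusted p = 0.13). Rora, an activator of Arntl, had 8.60 to 9.35 in B6-20xx and 9.17 to 9.61 in B6-55xx, a difference of -0.37 (limma adjusted p = 0.39).

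**Figure D2:**
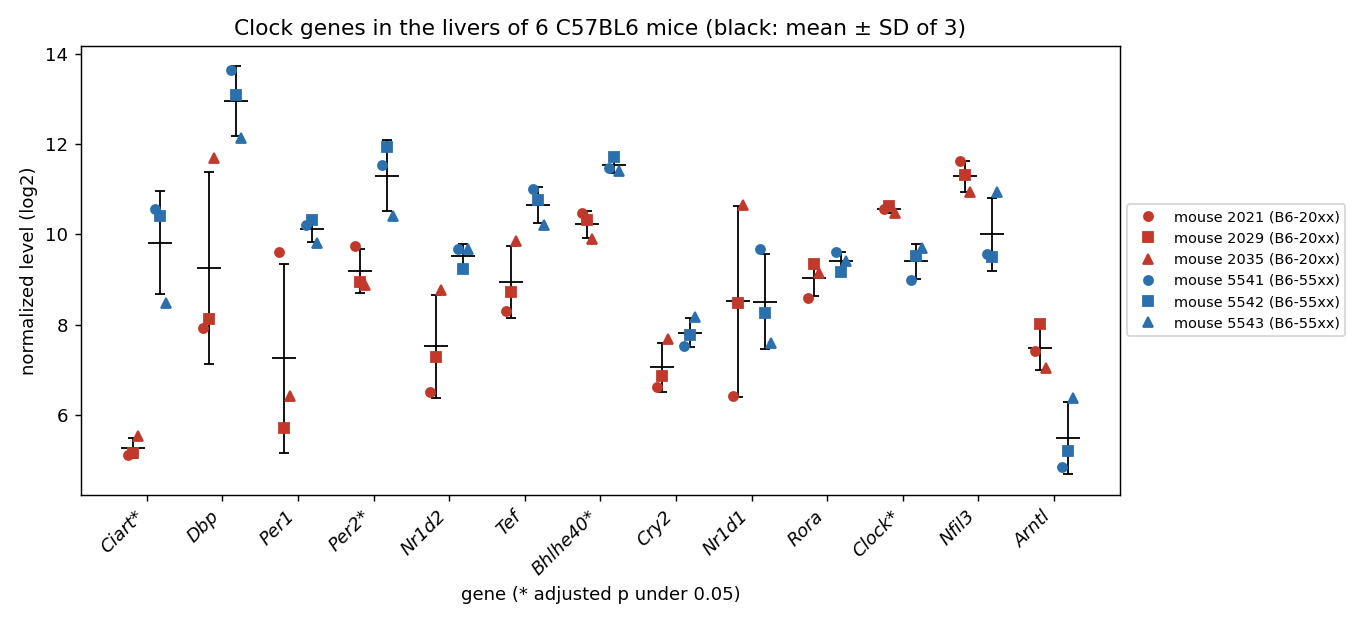
Normalized log2 level (vertical axis) of the 13 tested clock genes (horizontal axis) in each of the 6 livers, B6-20xx in red and B6-55xx in blue, with 1 symbol per mouse and the mean ± SD of 3 in black. Ciart lies at 5.11 to 5.52 in B6-20xx and 8.49 to 10.57 in B6-55xx, mouse B6_5543 is the blue triangle that lies nearest to B6-20xx for Ciart, Per2 and Arntl, and Nr1d1 spans 6.41 to 10.66 within B6-20xx alone.

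The mice of a subset differed in where their clock genes lay. Mouse B6_5543 was the B6-55xx mouse nearest the B6-20xx mean in 6 of the 9 genes that peak with E-box output and in 3 of the 4 of the opposite phase, against 2363 of 7246 over all genes. Mouse B6_5543 was also the nearest in 48 of the 102 called genes, 8 of 14 rhythmic output genes and 15 of 28 acute-phase genes. This was therefore not particular to clock genes, although it was the nearest in 2 of 30 genes of fatty acid oxidation. Among B6-20xx, mouse B6_2035 was the nearest to B6-55xx in 5 of the 9 and 3 of the 4. It was also the nearest in 3399 of 7246 over all genes and in 56 of the 102 called genes. The 5 of 9 is therefore close to its share outside the clock genes. Mouse B6_2035 combined low Per1, Per2 and Ciart with the highest Nr1d1 of all 6 livers.

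Of 23 listed rhythmic output genes of liver, 14 were tested, 4 were called lower in B6-20xx (0.593% of all genes) and none higher, and the median difference was -1.88. Without overlap, 11 were lower (12.6% of all genes) and 1 was higher. Leaving out 1 mouse gave 0 to 5 calls, with 0 without mouse B6_2029 and 1 each without mouse B6_5541 and mouse B6_5542. With the authors' log2 values 1 was called. Nampt, the enzyme that sets the pace of NAD salvage, had 7.50, 7.90 and 7.95 in B6-20xx against 9.54, 10.03 and 9.57 in B6-55xx. Both subsets were tight, the difference was -1.93 ± 0.21 (SE, limma adjusted p = 0.0096), and it was past the threshold in all 10 alternative settings and in 5 of 6 fits that left out 1 mouse, the exception being mouse B6_2029 (adjusted p = 0.059). Usp2, a deubiquitinase with a strong daily rhythm, had 9.70, 8.28 and 8.01 in B6-20xx against 11.40, 11.76 and 11.06 in B6-55xx, a difference of -2.75 ± 0.42 (SE, limma adjusted p = 0.025). Coq10b, a coenzyme Q binding protein, had 8.90, 8.45 and 8.28 in B6-20xx against 11.32, 10.85 and 9.68 in B6-55xx, a difference of -2.08 (limma adjusted p = 0.047) with mouse B6_5543 lowest in B6-55xx. St3gal5, which makes the ganglioside GM3, had 11.68, 10.88 and 10.52 in B6-20xx against 13.06, 13.01 and 12.81 in B6-55xx, a difference of -1.93 (limma adjusted p = 0.024).

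Other members of this list missed the threshold, among them Rgs16 and Gys2, which differed more than any called member. Rgs16, a brake on G protein signalling, had 5.03, 5.20 and 7.27 in B6-20xx against 12.22, 9.52 and 7.96 in B6-55xx, a difference of -4.07 ± 1.01 (SE, limma adjusted p = 0.097). It was detected on 1 of the 3 arrays of B6-20xx, and the spread within B6-55xx alone was over 4. Gys2, the liver glycogen synthase, had 4.88, 7.63 and 7.98 in B6-20xx against 9.70, 9.46 and 9.79 in B6-55xx, a difference of -2.82 (limma adjusted p = 0.097) in which mouse B6_2021 was the lowest. Gys2 was detected on 2 of the 3 arrays of B6-20xx. Noct, the daily regulated phosphatase nocturnin, and Upp2, a uridine phosphorylase, had differences of -1.85 and -1.91 (limma adjusted p = 0.16 and 0.088). The vasopressin receptor Avpr1a had 12.07, 12.46 and 11.85 in B6-20xx against 10.61, 11.37 and 11.27 in B6-55xx and was the list's only member that was higher without overlap, by 1.05 (limma adjusted p = 0.090).

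Acute-phase genes were higher in B6-20xx in part. Of 38 listed genes, 28 were tested, 4 were called higher (0.814% of all genes) and none lower, and the median difference was 0.21. None of them was called without mouse B6_2029 or mouse B6_5542, or with the authors' log2 values. Lcn2, the lipocalin that binds bacterial iron carriers, had 13.92, 14.37 and 14.30 in B6-20xx against 9.72, 9.93 and 12.08 in B6-55xx. Mouse B6_5543 lay above its 2 companions, and the difference was 3.62 ± 0.55 (SE, limma adjusted p = 0.025), a 12.3-fold higher level. Saa2, a serum amyloid A apolipoprotein, had 8.54, 10.10 and 10.16 in B6-20xx against 5.77, 6.07 and 6.17 in B6-55xx, a difference of 3.59 ± 0.40 (SE, limma adjusted p = 0.0096). Saa2 was detected on 2 of the 3 arrays of B6-55xx. Saa1, its close copy, had 8.69, 10.60 and 10.34 in B6-20xx against 5.84, 6.14 and 6.97 in B6-55xx, a difference of 3.56 ± 0.50 (SE, limma adjusted p = 0.021). Mouse B6_2021 was the lowest of B6-20xx for all 3 genes, yet above every B6-55xx liver. Apcs, serum amyloid P, an acute-phase protein in the mouse, had 11.06, 11.19 and 11.07 in B6-20xx against 9.71, 10.09 and 10.36 in B6-55xx, a difference of 1.06 ± 0.20 (SE, limma adjusted p = 0.047). Leaving out any 1 mouse gave 0.88 to 1.21 for Apcs with adjusted p of 0.050 to 0.19, all above the threshold.

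Saa1 and Saa2 lie next to each other on chromosome 7 and are near copies, so that probes for them may read both transcripts and the pair is not independent. Their promoter windows, on the minus strand at chr7:46742931-46743230 for Saa1 and on the plus strand at chr7:46751583-46751882 for Saa2 (RefSeq, GRCm38.p6), show how alike they are. In an alignment of 301 columns, 287 bases were identical (95.3%). Capitals mark a C/EBP-type match, searched as TTNNGNAAT on both strands, which starts at -183 in Saa1 and at -184 in Saa2 and stands in 11.5% of all windows. C/EBP factors drive acute-phase genes in liver.
Saa1: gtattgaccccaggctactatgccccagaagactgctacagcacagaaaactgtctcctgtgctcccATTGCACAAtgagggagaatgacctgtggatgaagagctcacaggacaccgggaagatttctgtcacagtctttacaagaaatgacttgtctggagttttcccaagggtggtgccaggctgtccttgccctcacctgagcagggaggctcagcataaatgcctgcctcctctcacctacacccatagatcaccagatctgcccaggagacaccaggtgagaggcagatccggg
Saa2: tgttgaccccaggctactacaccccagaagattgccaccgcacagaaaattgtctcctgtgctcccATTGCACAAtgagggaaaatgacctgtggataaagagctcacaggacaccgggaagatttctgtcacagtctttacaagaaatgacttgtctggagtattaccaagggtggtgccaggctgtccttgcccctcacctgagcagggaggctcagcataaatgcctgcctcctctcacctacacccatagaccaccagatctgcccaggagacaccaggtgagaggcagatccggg
The windows of Lcn2 and Apcs held no such match.

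The other 24 acute-phase genes tested were not called. Orm2, an orosomucoid, had 13.54, 14.00 and 14.29 in B6-20xx against 12.52, 10.88 and 12.70 in B6-55xx, a difference of 1.91 ± 0.45 (SE, limma adjusted p = 0.089). Stat3, the transcription factor that carries the interleukin 6 signal, and Serpina3n, a protease inhibitor, had differences of 1.08 and 0.97 (limma adjusted p = 0.079 and 0.068), with no overlap of the subsets. Further Stat3 probes gave 1.33 and -0.11 (limma adjusted p = 0.042 and 0.89), so the probes disagreed in sign. Haptoglobin (Hp) had 15.71 to 15.94 in B6-20xx and 15.53 to 15.79 in B6-55xx, near the top of the scale on these arrays, and fibrinogen alpha (Fga) had 15.41 to 15.64 in B6-20xx and 15.51 to 15.61 in B6-55xx. Their differences were 0.14 and -0.05 (limma adjusted p = 0.66 and 0.86). Of 10 negative acute-phase genes, all tested, none was called, and the median was 0.04, or -0.07 at the lowest over the alternatives. Neutrophils and monocytes also express Lcn2. Of 14 of their markers on the array, 6 were detected in B6-20xx and 5 in B6-55xx, and their summed level was 10.39 to 10.77 in B6-20xx and 10.59 to 10.67 in B6-55xx. Among these, S100a8 had 5.26 to 6.75 in B6-20xx and 5.63 to 6.01 in B6-55xx (difference 0.33, limma adjusted p = 0.63), and S100a9 had 6.15 to 7.25 in B6-20xx and 5.74 to 6.46 in B6-55xx (difference 0.62, limma adjusted p = 0.30). Prtn3, a neutrophil protease that is not among these markers, was called higher in B6-20xx, by 3.23 (limma adjusted p = 0.024). In whole liver, a change in the cells that express a gene and a change in RNA per cell cannot be told apart.

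**Figure D3:**
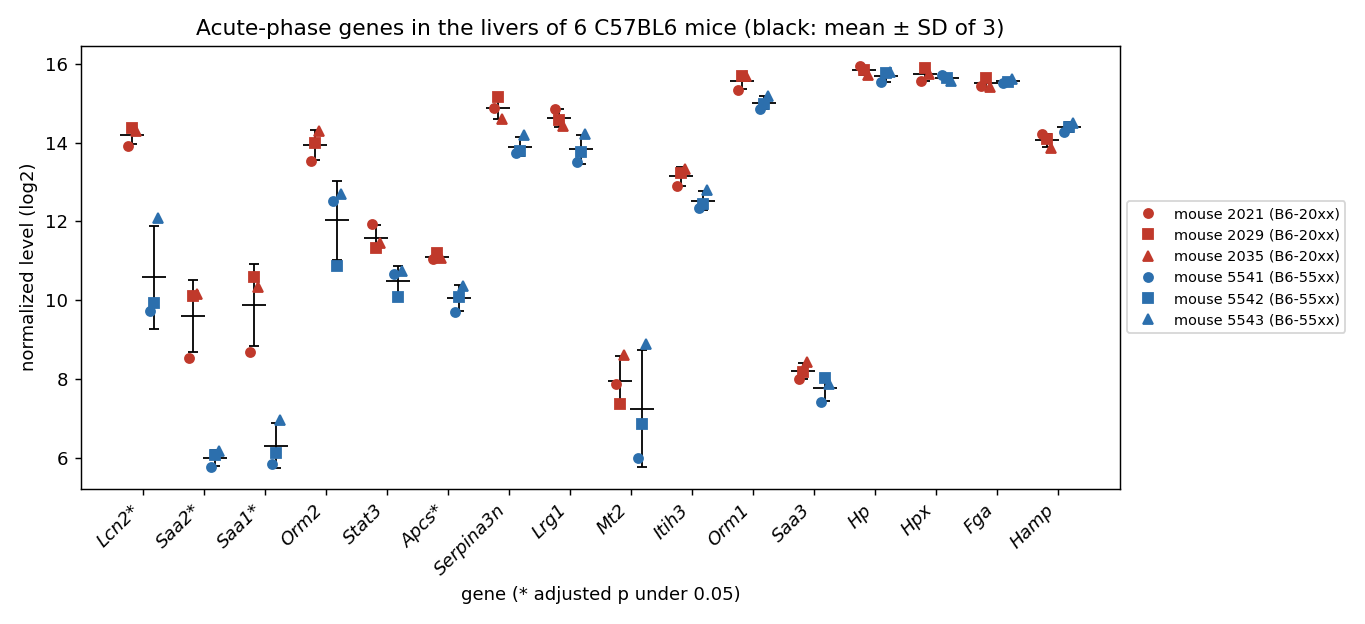
Normalized log2 level (vertical axis) of 16 acute-phase genes (horizontal axis) in each of the 6 livers, B6-20xx in red and B6-55xx in blue, with the mean ± SD of 3 in black. Lcn2 lies at 13.92 to 14.37 in B6-20xx and 9.72 to 12.08 in B6-55xx, while Hp and Fga overlap between the subsets.

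Genes that fasting raises were lower in B6-20xx, again in part. Of 39 listed genes of fatty acid oxidation and ketogenesis, 30 were tested, 2 were called lower (0.593% of all genes) and none higher, 25 had a negative difference (3430 of 7246 over all genes), and the median was -0.48. None was called without mouse B6_2029 or mouse B6_5541, with the authors' log2 values or with no detection filter. Acot1, a cytosolic acyl-CoA thioesterase and a classic Ppara target, had 9.80, 9.76 and 9.71 in B6-20xx against 12.21, 11.25 and 12.93 in B6-55xx. B6-20xx was uniform and B6-55xx spread, and the difference was -2.38 ± 0.37 (SE, limma adjusted p = 0.025), with -2.72 from a second probe. Ppara, the receptor, had 5.33, 5.47 and 5.83 in B6-20xx, all below the detection limit, against 6.50, 6.54 and 6.59 in B6-55xx, all detected. It was at least 1.42-fold lower in B6-20xx against the detection limit (limma adjusted p = 0.042), it entered the test only through B6-55xx, and leaving out 5 of the 6 mice in turn lost the call (adjusted p up to 0.18).

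Angptl4, the secreted inhibitor of lipoprotein lipase that fasting raises, had 10.49, 9.05 and 9.99 in B6-20xx against 12.46, 11.35 and 11.64 in B6-55xx. The subsets did not overlap, but the difference of -1.97 ± 0.40 (SE, limma adjusted p = 0.060) missed the threshold, and without mouse B6_2021 it was -2.29 (adjusted p = 0.047). That was the only 1 of 6 such fits past the threshold, with adjusted p up to 0.17. Acot3 and Acot4, peroxisomal relatives of Acot1, had differences of -2.54 and -1.13 (limma adjusted p = 0.097 and 0.11). The copies of this family sit side by side on chromosome 12, and cross-reading of their probes was not tested. Hadhb, a subunit of the mitochondrial trifunctional protein, had 10.23, 10.78 and 10.83 in B6-20xx against 11.62, 11.51 and 12.08 in B6-55xx, a difference of -1.13 (limma adjusted p = 0.062). Acadm, the medium-chain acyl-CoA dehydrogenase, and Fgf21, the fasting hormone of the liver, had differences of -0.56 and -0.45 (limma adjusted p = 0.22 and 0.23). Pdk4, which blocks pyruvate oxidation in fasting, ran the other way, with 8.77, 8.95 and 8.95 in B6-20xx against 8.58, 6.79 and 9.38 in B6-55xx, a difference of 0.64 (limma adjusted p = 0.53).

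In this list it was another B6-55xx mouse that lay nearest to B6-20xx. Mouse B6_5542 was the nearest in 24 of 30 genes and mouse B6_5543 in 2, whereas for the clock genes with E-box output mouse B6_5542 was the nearest in 2 of 9 and mouse B6_5543 in 6. Over all genes the 3 mice were nearest in 2506, 2377 and 2363 genes (B6_5541, B6_5542 and B6_5543).

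Of 27 listed genes of glucose production and of the glucocorticoid response, 21 were tested, 4 were called lower in B6-20xx (0.593% of all genes) and none higher, and the median was -0.48. Without mouse B6_2029, mouse B6_5541 or mouse B6_5542 none was called. With the authors' log2 values 1 was called. Lpin1, a phosphatidate phosphatase that is also a partner of Ppara, had 7.51, 6.56 and 7.11 in B6-20xx against 10.91, 11.33 and 9.43 in B6-55xx. The difference was -3.50 ± 0.47 (SE, limma adjusted p = 0.019), 11.3-fold, with mouse B6_5543 again lowest in B6-55xx. Fkbp5, a chaperone partner that glucocorticoids induce, had 7.93, 8.16 and 8.09 in B6-20xx against 9.65, 10.42 and 9.26 in B6-55xx, a difference of -1.71 ± 0.28 (SE, limma adjusted p = 0.031). Pck1, the gluconeogenic enzyme PEPCK, had 7.98, 7.17 and 8.29 in B6-20xx against 9.71, 9.22 and 9.46 in B6-55xx, a difference of -1.65 ± 0.29 (SE, limma adjusted p = 0.040). Foxo1, the factor that insulin switches off, had 8.10, 8.19 and 8.43 in B6-20xx against 9.41, 9.47 and 9.56 in B6-55xx, a difference of -1.24 ± 0.16 (SE, limma adjusted p = 0.019).

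The other 17 genes were not called. G6pc, the last step of glucose output, had 12.75 ± 0.91 in B6-20xx and 13.18 ± 0.20 in B6-55xx (SD, n = 3 each), with an overlap and a difference of -0.44 (limma adjusted p = 0.56). Got1, a cytosolic aminotransferase, had a difference of -0.98 (limma adjusted p = 0.089). Irs2, the insulin receptor substrate that fasting raises in liver, had 10.37, 7.94 and 8.73 in B6-20xx against 8.55, 6.21 and 5.80 in B6-55xx, a difference of 2.16 with a limma adjusted p of 0.19. Among 19 fed-type lipogenic genes tested none was called, and the median was -0.16. The lowest were Thrsp (Spot 14), with 9.66, 10.20 and 9.82 in B6-20xx against 12.02, 12.97 and 10.36 in B6-55xx, and Pklr, the liver pyruvate kinase, with differences of -1.89 and -1.45 (limma adjusted p = 0.13 each).

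**Figure D4:**
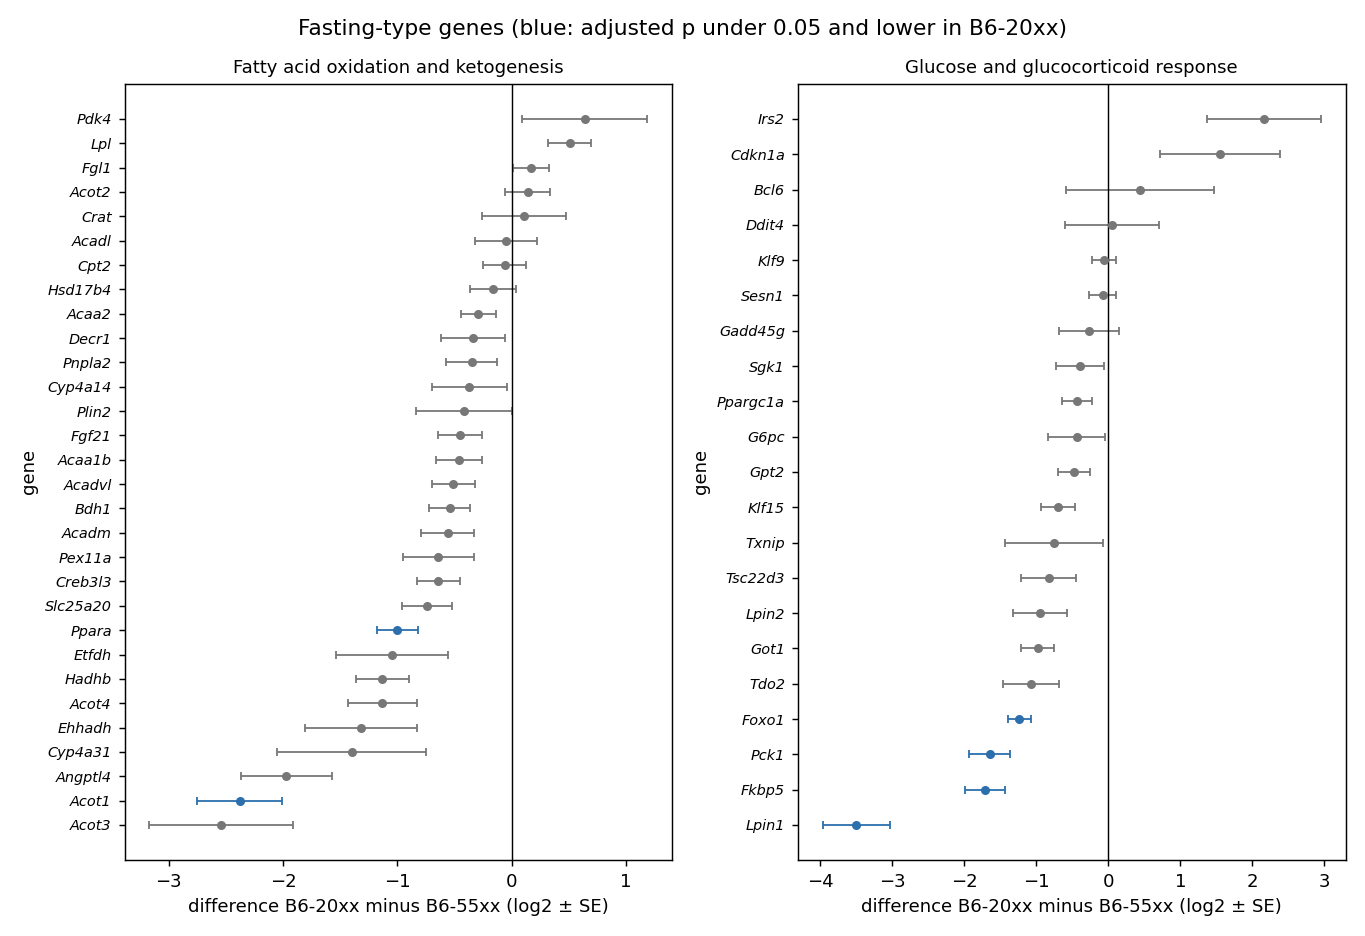
Difference B6-20xx minus B6-55xx (log2 ± SE, horizontal axis) of each tested gene (rows) of fatty acid oxidation and ketogenesis (left, 30 genes) and of the glucose and glucocorticoid response (right, 21 genes). Blue genes passed the threshold, and all 6 of them are negative, with Lpin1 the lowest at -3.50.

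Chac1, an enzyme that breaks down glutathione and a target of the integrated stress response, had 7.58, 7.91 and 9.20 in B6-20xx against 10.25, 10.31 and 10.36 in B6-55xx. B6-55xx was uniform, mouse B6_2035 lay between the others, and the difference was -2.08 ± 0.37 (SE, limma adjusted p = 0.042). Without mouse B6_2035 it was -2.57 (adjusted p = 0.0043), and without any other single mouse the adjusted p was 0.067 to 0.17. The other tested genes of that response did not go with it as a set. Of 32 listed genes, 17 were tested, and the median was 0.14, or -0.08 under median scaling. Chac1 was called lower and 1 gene higher, against 0.593% and 0.814% of all genes. Atf3 was detected on 2 arrays of B6-20xx, Trib3 and Asns on 1 each, and none of these on B6-55xx arrays. Psat1, Phgdh, Mthfd2 and Sesn2 were detected on none of the 6 arrays. These genes were not tested, so whether they go with Chac1 is not known. The higher one was Atf5, a transcription factor of the same family as Atf4, with 11.88, 12.22 and 11.81 in B6-20xx against 10.82, 10.48 and 10.83 in B6-55xx, a difference of 1.26 ± 0.19 (SE, limma adjusted p = 0.024). Cebpb, which is induced in fasting and in stress, had 13.49, 12.66 and 12.55 in B6-20xx against 13.98, 13.97 and 13.80 in B6-55xx, a difference of -1.02 (limma adjusted p = 0.099).

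Chaperones of the endoplasmic reticulum were higher in 2 of 16 tested genes and lower in none, with a median of 0.29 (0.814% of all genes were called higher). Leaving out any mouse but B6_2035 left none called, as did the authors' log2 values and median scaling, the latter with a median of 0.04. Hyou1, a chaperone of the lumen, had 7.14, 7.35 and 6.57 in B6-20xx, all detected, against 5.80, 5.69 and 5.23 in B6-55xx, none detected. Against the detection limit it was at least 2.11-fold higher in B6-20xx (limma adjusted p = 0.036), and it entered the test only through B6-20xx. Pdia4, a disulfide isomerase, had 12.47, 12.50 and 12.10 in B6-20xx against 11.35, 11.47 and 10.95 in B6-55xx, a difference of 1.10 (limma adjusted p = 0.045). Calr, calreticulin, and Dnajc3, a co-chaperone, had differences of 1.83 and 1.35 (limma adjusted p = 0.056 and 0.065) without overlap. Hspa5 (BiP), the main chaperone of the compartment, had 6.42 to 6.87 in B6-20xx and 6.76 to 7.05 in B6-55xx, a difference of -0.21 (limma adjusted p = 0.54). These values were detected but low, near those of Hyou1 in B6-20xx and far below those of Pdia4. How well this probe reads Hspa5 was not tested.

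All 13 tested genes of tubulin and the cytoskeleton had a positive difference (3816 of 7246 over all genes), 3 were called higher (0.814% of all genes), and the median was 0.81. None was called without mouse B6_2029 or with the authors' log2 values, 2 without B6_2035, and 1 without any other single mouse or under median scaling. Tubb2b, a beta tubulin, had 12.40, 12.56 and 11.70 in B6-20xx against 8.49, 8.42 and 9.67 in B6-55xx, a difference of 3.36 ± 0.37 (SE, limma adjusted p = 0.0096), 10.3-fold. Tubb6 and Tubb4b, 2 further beta tubulins, had differences of 1.20 and 1.17 (limma adjusted p = 0.042 and 0.028), and Tuba4a and beta-actin (Actb) had 1.06 and 0.81 (limma adjusted p = 0.062 and 0.15). Tubulin genes resemble each other, and cross-reading of their probes was not tested. The summed level of stellate cell and fibroblast markers, which express much cytoskeleton, was 14.28 to 14.85 in B6-20xx and 13.99 to 14.37 in B6-55xx, that of 6 cholangiocyte markers was 8.39 to 8.83 in B6-20xx and 7.98 to 8.15 in B6-55xx, and their part in these differences was not tested. Of the 6 cholangiocyte markers, 3 were detected in B6-20xx and 1 in B6-55xx, so their sums include undetected probes. None of 11 muscle markers was detected in either subset, and these alone summed to 8.57 to 8.63 in B6-20xx and 8.57 to 8.60 in B6-55xx.

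Set beside the 20 ob/ob livers, the subset that lay outside the range of the others changed from gene to gene. These levels are a description with no test, because the vehicle arrays had a lower background, of 101.1 to 113.8, than the B6 arrays. Lcn2 had 7.19 at the lowest, 9.81 at the median and 13.38 at the highest in ob/ob livers, so all 3 B6-20xx livers lay above that range and all 3 B6-55xx livers within it. Saa1, Saa2 and Prtn3 were above the ob/ob range in B6-20xx as well. Angptl4 had 11.07, 11.54 and 12.92 (lowest, median and highest) in ob/ob livers and Nampt had 8.82, 9.88 and 10.55, and B6-20xx lay below both ranges. Fkbp5, Pck1 and Acot1 were likewise below the ob/ob range in B6-20xx. It was B6-55xx that lay outside for Usp2, which had 6.81, 8.80 and 10.48 in ob/ob livers, and for Lpin1, which had 4.67, 7.16 and 8.75 there. In Tubb2b, B6-55xx lay below the ob/ob livers, which had 9.97, 11.02 and 13.10.

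For the clock loop the ob/ob livers covered the gap between the subsets. Ciart had 5.21, 7.41 and 9.15 (lowest, median and highest) in ob/ob livers, Per2 had 8.98, 10.11 and 11.27, Dbp had 9.78, 12.17 and 13.48, and Arntl had 6.31, 7.68 and 8.79. Neither subset lay wholly outside these ranges, but part of its livers did. Ciart lay below the range with 5.11 and 5.16 in B6-20xx and above it with 10.57 and 10.40 in B6-55xx. Per2 lay below with 8.95 and 8.88 in B6-20xx and above with 11.54 and 11.94 in B6-55xx. Dbp lay below with 7.92 and 8.12 in B6-20xx and above with 13.65 in B6-55xx. Arntl lay below with 4.85 and 5.20 in B6-55xx. Chac1 had 8.35, 9.23 and 10.75 in ob/ob livers. Within ob/ob groups Ciart averaged 6.55 ± 1.42 in LEP-SQ and 8.77 ± 0.29 in VEH-SQ (SD, n = 4 each), and 6.30 ± 1.11 in LEP-ICV, 7.04 ± 1.06 in LEP-ICV* and 7.61 ± 1.23 in VEH-ICV (SD, n = 4 each). It was detected on all 4 arrays of VEH-SQ, on 2 of LEP-ICV and on 3 of each other group, so most means include undetected values. Background was 155.3 to 167.7 in LEP-SQ against 101.1 to 113.8 in VEH-SQ, so leptin and background cannot be told apart there. It ranged from 103.5 to 173.3 in LEP-ICV and from 99.4 to 176.4 in LEP-ICV*.

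**Figure D5:**
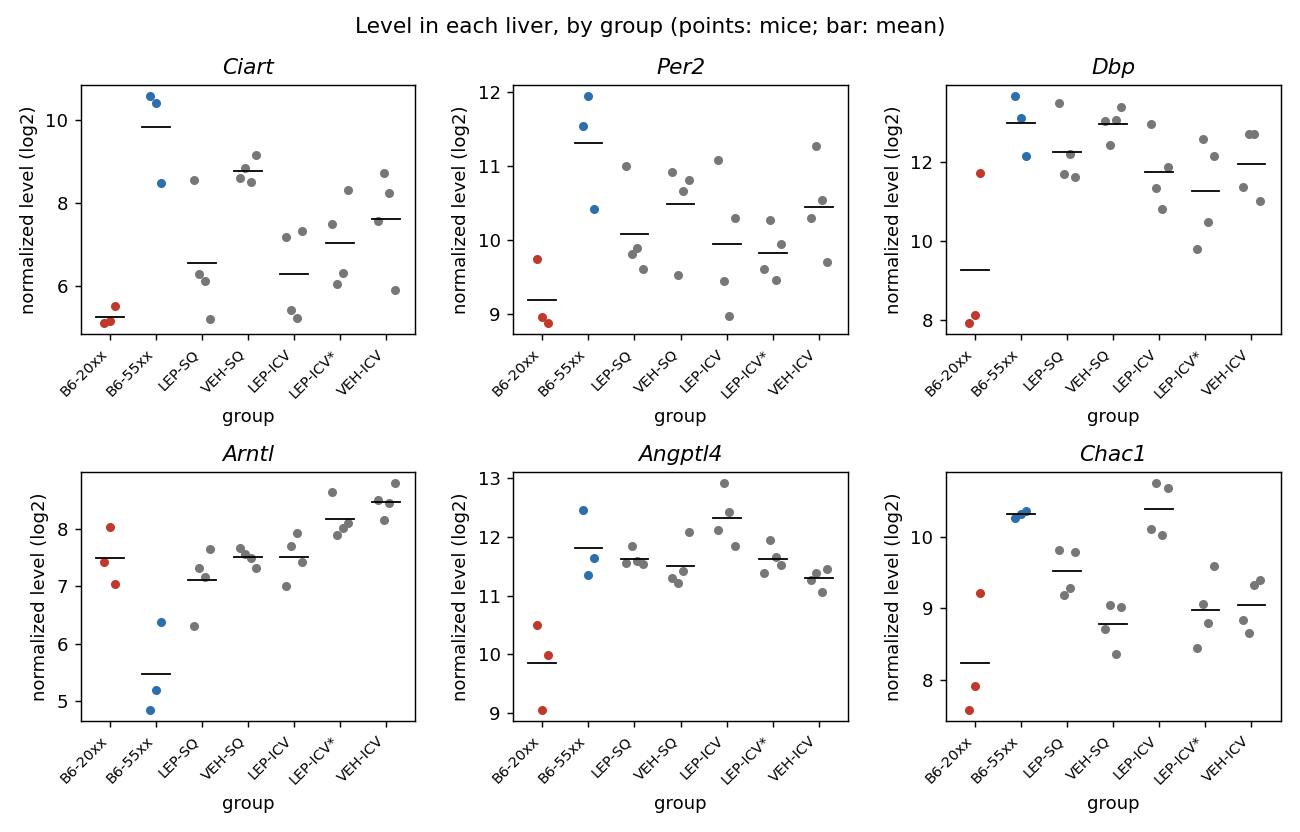
Normalized log2 level (vertical axes) of Ciart, Per2, Dbp, Arntl, Angptl4 and Chac1 in each liver of the 7 groups (horizontal axes), 3 mice in each B6 subset and 4 in each ob/ob group, with the mean as a bar. For Angptl4 all 3 B6-20xx livers (9.05 to 10.49) lie below all ob/ob livers (11.07 to 12.92), and for Ciart the ob/ob livers (5.21 to 9.15) span the gap between the subsets. Livers of both subsets also lie outside the ob/ob range for Ciart.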

How the data were processed

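Each of the 26 livers was measured on 1 Illumina MouseRef-8 v2.0 array. Per the labels, intensities were exported from BeadStudio 2.0. The authors deposited probe intensity values, which carry no background correction, and a detection score per probe, a fraction from 0 to 1 that rises with signal. A table of log2 values, which the authors made in lumi (version not given in the sources used here), served as an alternative.

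From the intensities of 25697 probes, background correction and quantile normalization of all 26 arrays were done by neqc in limma 3.58.1 (R 4.3.3, offset 16). A probe counted as detected at 1 minus its score under 0.01, and probes detected on at least 3 of the 6 B6 arrays were kept. A gene was represented by its kept probe with the highest mean. Names came from the platform annotation, which gave 23978 probes 1 symbol, 0 several and 1719 none, and 583 of 9950 kept probes had none. The 3 B6-20xx and 3 B6-55xx arrays were compared with lmFit and eBayes and called at an adjusted p under 0.05. A fold against a subset with no detected array is a bound, from the bright subset's mean over the mean of, per array, the higher of the lowest detected signal and the gene's own. The steps were first tested on simulated data.

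Members, markers and gene lists were chosen with earlier results of these data known. Named are the 6 markers Ciart, Dbp, Arntl, Per2, Angptl4 and Chac1, all tested clock genes, the 12 largest called increases and 12 largest decreases without overlap, and per list described the 4 largest called changes or, with none called, the 2 largest. Rgs16, Gys2, Noct, Upp2, Avpr1a, Orm2, Stat3, Serpina3n, Hp, Fga, Acot3, Acot4, Hadhb, Acadm, Fgf21, Pdk4, Irs2, G6pc, Got1, Calr, Dnajc3, Hspa5, Cebpb, Tuba4a, Actb and Nmrk1 were chosen after their values were seen. Mice are separate animals, how they were housed or handled together is not given, and precision is limited by 3 arrays a subset. Other normalizations, filters and variance models and each mouse left out were tried.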

Additional observations from a re-analysis of the deposited data

How the results depend on the processing

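No named gene that was called changed direction in any alternative, but 232 of their 631 alternative values were not past the threshold. Trim2, Nampt, Pnkd, Nmrk1, Pcsk4 and Nrg4, 6 of 40, stayed past it in every setting that kept all 6 mice and tested them, Pcsk4 only just (highest adjusted p 0.050, rounded up) and Nrg4 in the 9 that tested it. Of 1296 values of the named genes that were not called, 83 were past it. The count of 102 (59 higher and 43 lower) became 30 (20 and 10) with the authors' log2 values and 29 (17 and 12) with no detection filter. It became 1250 (671 and 579) with array weights, whose estimation stopped before it converged. Median scaling without quantile normalization called 23 higher and 67 lower, 25.6% higher against 57.8%, and moved the median of all genes from 0.03 to -0.23. The model of all 26 arrays called 72 genes, 39 higher and 33 lower, of which 47 were among the 102. With every detected probe as a feature, an alternative chosen after seeing the data, 69 probes were lower. Leaving out 1 mouse gave 0 to 140 genes in all, 0 to 71 higher and 0 to 69 lower. The cause of these shifts was not tested, except that the unfiltered fit adjusts over 16593 genes.

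The median of the clock list with E-box output stayed between -2.31 and -1.41 over all alternatives, that of the opposite phase between 0.67 and 1.53, and those of the 2 fasting-type lists between -0.73 and -0.36 and between -0.95 and -0.35. Sign changes arose in 15 values, all of genes not called. With median scaling these were Alas2 (-0.03), Nr1d1 (-0.30) and Xist (-0.18), with array weights Car3 (0.47), Fga (0.07) and Nr1d1 (-0.07), with the authors' values Fga (0.06), and with neqc on the B6 arrays alone Nr1d1 (-0.03). Leaving out 1 mouse gave -1.06 to 1.06 for Nr1d1, -0.44 to 0.37 for Car3, -0.47 to 0.00 for Ccl5, -0.09 to 1.21 for Pdk4 and -1.87 to 0.46 for Serpina4-ps1. Medians of the integrated stress response and hepatocyte lists turned negative (to -0.08 and -0.03) under median scaling. No paired analysis was possible because the subsets share no replicate numbers. Ciart, Ppara, Hyou1 and Eif4ebp3 were detected on no array of 1 subset, so only a bound on their fold is given. Rgs16, Gys2, Per1, Cux2, Nrg4, Pklr and Fgf21, among others, were detected on 1 or 2 of the 3 arrays of B6-20xx. Arntl, Saa2, Prtn3, Gas7, Irs2 and Tuba4a were so on those of B6-55xx. The differences of these genes therefore include undetected values. The background was high on all B6 arrays, and its part in this was not tested.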

Other observations

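Beyond the clock, acute-phase and fasting-type lists, several of the largest called differences were in genes of other kinds. Trim2, a ubiquitin ligase, had the lowest p of all, with 10.77, 10.41 and 10.24 in B6-20xx against 8.14, 7.97 and 8.12 in B6-55xx, a difference of 2.39 ± 0.18 (SE, limma adjusted p = 0.0062). Prtn3, the neutrophil protease proteinase 3, had 10.38, 9.19 and 8.51 in B6-20xx against 6.05, 5.56 and 6.80 in B6-55xx, a difference of 3.23 (limma adjusted p = 0.024). The summed level of neutrophil and monocyte markers was 10.39 to 10.77 in B6-20xx and 10.59 to 10.67 in B6-55xx, and its part in this difference was not tested. Spon2, an extracellular matrix protein, Pnkd, Paxx, a factor of DNA end joining, Ndrg1, Gas7 and Tjp3, a tight junction protein, were higher by 2.40, 1.96, 1.95, 1.94, 1.90 and 1.84 (limma adjusted p = 0.0096 to 0.021), all without overlap. Cux2, a transcription factor that is higher in female than in male mouse liver, had 5.46, 6.01 and 7.44 in B6-20xx against 9.79, 8.43 and 9.84 in B6-55xx, a difference of -3.05 (limma adjusted p = 0.040). Of 9 tested female-biased genes only Cux2 was called, and none of 12 male-biased genes was, against 0.593% of all genes called lower and 0.814% higher. Their median differences were -0.46 and 0.02. A negative difference was found in 8 of the 9 and in 5 of the 12 (3430 of 7246 over all genes).

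Nmrk1, a kinase of nicotinamide riboside, had 7.38, 8.05 and 7.84 in B6-20xx against 9.52, 9.61 and 9.29 in B6-55xx, a difference of -1.72 (limma adjusted p = 0.014). Eif4ebp3, a repressor of translation, was detected in no B6-20xx liver and in all 3 of B6-55xx and was at least 3.05-fold lower. Nrg4, a hormone-like ligand of the ErbB4 receptor, Pcsk4, a proprotein convertase, and Gpcpd1, a phosphodiesterase, were lower, with differences of -2.10, -2.12 and -2.12 (limma adjusted p = 0.0096, 0.0096 and 0.036). The 3 other Pcsk4 probes gave -1.30, -1.51 and -0.94 (limma adjusted p = 0.046, 0.040 and 0.11). Cdh1 (E-cadherin), a periportal gene, was higher by 1.14 (limma adjusted p = 0.025).

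Other lists had no called gene by limma, with medians of 0.31 for 18 cholesterol genes, 0.31 for 22 interferon-induced genes, -0.16 for 27 cytochrome P450 and related genes and 0.67 for 6 proliferation genes. Insig1 and Mvd, which sterol shortage raises, had differences of 1.64 and 1.25 (limma adjusted p = 0.13 each), although 2 further Insig1 probes gave 0.29 and 0.04. Isg15 had a difference of 0.80 (limma adjusted p = 0.099). Egr1, which responds within minutes to stress, had 8.57, 12.32 and 12.47 in B6-20xx and 10.12, 8.07 and 10.41 in B6-55xx, a range within each subset wider than the difference of 1.59 (limma adjusted p = 0.41).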
